A study of Homo sapiens with 9 samples.

Results

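The human metallothionein genes MT1E, MT1F, MT1G, MT1M, MT1X and MT2A and the gene of their metal sensor, MTF1, were followed in A375 melanoma cells exposed to TP-472, which inhibits the bromodomains of BRD9 and BRD7. These 7 genes were taken by symbol from the 26475 symbols of the count table, by a rule that uses no measured value although earlier results of these data were known, and all 7 were present. Of the 7, 3 (MT2A, MT1X and MTF1) had enough counts to be tested, and the other 4 were at or near 0. A375 is an established human BRAF-mutant melanoma line, so the data describe 1 line at 1 time point. Cells were kept for 24 h in the vehicle DMSO or in TP-472 at 5 or 10 µM, with 3 libraries, given as biological replicates, in each of the 3 groups. Nothing else in the labels separates the groups, and no group carries a genetic change that the others lack.

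Metallothioneins are small cysteine-rich proteins of the cytosol and nucleus that bind zinc and copper, buffer free zinc and take up toxic metals such as cadmium. MTF1, the metal-responsive transcription factor, binds zinc through its zinc fingers, moves to the nucleus and binds metal response elements upstream of metallothionein genes and of the zinc exporter gene SLC30A1. Metallothionein mRNA is therefore widely used as a readout of free zinc, and it also responds to cadmium, oxidants and glucocorticoids. In melanoma and other cancers, the family varies with metal load, stress and DNA methylation.

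In GENCODE 29 (GRCh38), the 6 metallothionein genes lay in 1 cluster on chromosome 16. MT2A was at chr16:56608199-56609497, MT1E at chr16:56625475-56627112, MT1M at chr16:56632233-56633986, MT1F at chr16:56657694-56660698 and MT1X at chr16:56682424-56684196, all on the plus strand. MT1G was at chr16:56666731-56668065 on the minus strand. MTF1 was at chr1:37809567-37859620 on the minus strand.

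The coding sequences of the 2 expressed metallothionein genes, as annotated in GENCODE 29, are printed to show how alike they are and where the metal-binding residues fall, with the cysteine codons in capitals.
MT2A: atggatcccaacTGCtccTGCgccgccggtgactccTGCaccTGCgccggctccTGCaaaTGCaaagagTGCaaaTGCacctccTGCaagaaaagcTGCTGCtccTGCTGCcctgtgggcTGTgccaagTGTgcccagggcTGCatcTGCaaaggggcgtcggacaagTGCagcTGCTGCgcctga
MT1X: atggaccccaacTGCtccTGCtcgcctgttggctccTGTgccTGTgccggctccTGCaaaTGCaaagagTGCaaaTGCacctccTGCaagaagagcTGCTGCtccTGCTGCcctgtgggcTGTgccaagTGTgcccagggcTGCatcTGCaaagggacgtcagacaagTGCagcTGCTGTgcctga

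Each of the 6 metallothionein coding sequences was 186 nt long, with 61 codons before the stop, of which 20 (32.8%) encoded cysteine and 0 encoded an aromatic residue. MT2A and MT1X were identical at 172 of the 186 positions (92.5%), and their transcripts shared an unbroken run of 63 nt. Over all pairs of the 6 genes, identity ran from 88.7% (MT1F with MT1X) to 95.2% (MT1G with MT2A), and the longest shared run of transcript was 96 nt (MT1G with MT1X). The values of these paralogs are therefore uncertain to the extent that reads were divided among near-identical copies. The deposited expected counts of MT2A and MT1X were not whole numbers in 9 of 9 libraries (tolerance 0.001), which marks reads that RSEM shared between genes. The value lay 0.10 to 0.20 of a count below the next whole number for MT2A and 0.02 to 0.90 for MT1X. Such a fraction does not tell how many reads were shared. In the annotation, 18.1% of the exonic bases of MT1X also belonged to another gene on the same strand, and reads from there cannot be told apart.

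The promoters of MT2A and MT1X are printed because they hold the elements through which MTF1 acts. They cover the 250 bases upstream of the RefSeq transcript start (GRCh38.p14, plus strand), at chr16:56608334-56608583 for MT2A and chr16:56682220-56682469 for MT1X. In GENCODE 29 these genes start earlier, at chr16:56608199 and chr16:56682424. The MT2A window thus lies inside the annotated gene, and the MT1X window overlaps its gene in part. Capitals mark matches to the metal response element core, searched as TGCACNC and TGCGCNC on both strands.
MT2A: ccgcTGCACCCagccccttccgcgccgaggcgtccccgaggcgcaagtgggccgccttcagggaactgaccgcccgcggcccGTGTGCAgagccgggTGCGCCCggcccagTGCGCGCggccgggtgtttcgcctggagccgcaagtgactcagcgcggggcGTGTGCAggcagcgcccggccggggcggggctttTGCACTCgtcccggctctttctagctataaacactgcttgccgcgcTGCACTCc
MT1X: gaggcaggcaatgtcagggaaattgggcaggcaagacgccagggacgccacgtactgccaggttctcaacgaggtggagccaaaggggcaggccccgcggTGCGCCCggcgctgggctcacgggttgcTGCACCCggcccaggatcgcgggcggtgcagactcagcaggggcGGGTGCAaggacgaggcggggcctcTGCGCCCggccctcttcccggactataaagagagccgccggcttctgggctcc

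The MT2A promoter held 7 matches, 5 on the gene's strand and 2 on the other, and the MT1X promoter held 4, 3 on the gene's strand and 1 on the other. No match overlapped another. Of 35116 RefSeq promoter windows of the same length, 24.8% held at least 1 match, 0.37% held at least 4 and 0.0313% held at least 7. The SLC30A1 window held 1 match, 49 to 43 bases upstream of the start, and the MTF1 window held none, which says only that these letters were not in that window. The RefSeq promoter table matched 3 of the 7 genes by symbol (MT2A, MT1X and MTF1). A match is a run of letters and not a measured binding site.

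**Figure D1:**
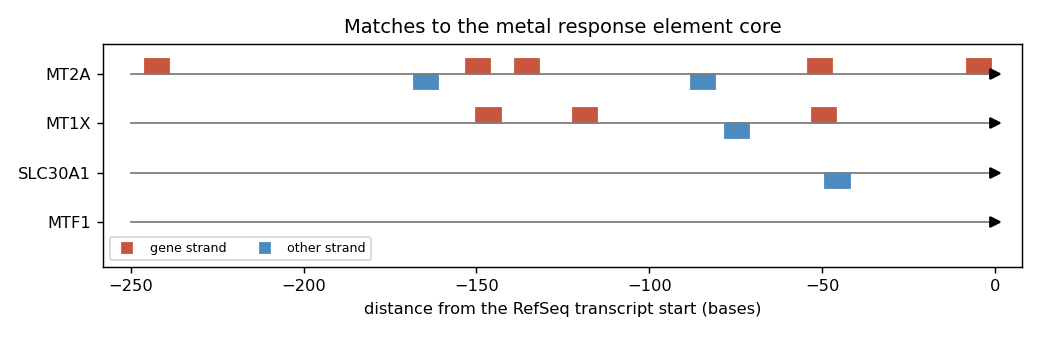
Positions of matches to the metal response element core in the 250 bases upstream of the RefSeq start of 4 genes; the horizontal axis is the distance from the start in bases, and boxes above and below each line are matches on the gene's strand and on the other strand. MT2A shows 7 boxes, MT1X 4, SLC30A1 1 and MTF1 none.

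The 9 libraries held 42483091 to 51298130 expected counts, of which 8.2% to 19.89% fell on ribosomal RNA genes. Levels are given as CPM, a library's expected count for a gene relative to its TMM-scaled library size, in the usual counts-per-million unit. Replicate 1 of the 10 µM group stood apart. Its deviations from the mean of its own group tracked transcript length and GC content, which took up 11.03% of their variance. The share was 5.01% and 5.26% in the other 10 µM libraries and at most 0.47% elsewhere. The 594 tested transcripts under 800 nt had a median log2 deviation of 0.426 in that library, and of −0.207 and −0.164 in the other 10 µM libraries. Each deviation is from a mean that includes replicate 1, so a high replicate 1 by itself places the other 10 µM libraries below it. The principal transcripts of MT2A (786 nt) and MT1X (450 nt) are of this short class and that of MTF1 (7972 nt) is long. The 10 µM fold changes of these genes and of the other named genes are therefore given with and without this library. Medians over gene lists are given with all libraries only, except for the copper-handling genes. The part of transcript length in any single gene's value was not tested beyond removing the fitted trend. Of the 7 melanocyte-lineage markers, SOX10 (363 to 426 CPM), MITF (23.3 to 35.9 CPM), S100B and PMEL reached 1 CPM, whereas MLANA and DCT stayed below 1 CPM and TYR was at 0 in all 9 libraries. Of the markers of undifferentiated melanoma lines, AXL was at 391 to 529 CPM, and NGFR averaged 85.5, 41.5 and 48.7 CPM at 0, 5 and 10 µM. Of the markers of other cell types, KRT14 (5.5 to 8.75 CPM) and KRT5 (0.14 to 1.77 CPM) of keratinocytes, LUM (2.09 to 3.93 CPM) and DCN (0.143 to 1.01 CPM) of fibroblasts and PECAM1 of endothelium (0.76 to 2.12 CPM) were detected, and the immune marker PTPRC was at most 0.537 CPM. The part of these markers in the results was not tested.

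MT2A, the main metallothionein of most human cells, supplied nearly all metallothionein mRNA in these cells. It ranked 692nd of 16417 tested genes by mean CPM under DMSO and 149th of 15323 by CPM per kb of transcript. Per-kb values and ranks depend on the GENCODE 29 transcript chosen, which is 786 nt long for MT2A. Per kb, the mean DMSO level was 282 CPM for MT2A, 16.8 CPM for MT1X and 3.92 CPM for MTF1. Of the summed counts of the 6 metallothionein genes, MT2A gave 96.3% to 97.8% in each library. The order MT2A, MT1X, MTF1 held on the per-kb scale in all 3 groups, with 239, 11.6 and 4.75 CPM per kb at 5 µM and 319, 13.1 and 5.3 CPM per kb at 10 µM. Because each library is bulk RNA, fewer cells that express a gene and less of its RNA per cell cannot be told apart.

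MT2A read 224, 230 and 211 CPM in the DMSO libraries, 202, 180 and 183 CPM at 5 µM and 323, 201 and 228 CPM at 10 µM. All 5 µM libraries lay below all DMSO libraries, while the 10 µM libraries spread over both sides of DMSO, with replicate 1 the highest of the 9. The means were 221 ± 9.84 CPM (SD, n = 3) for DMSO, 188 ± 11.9 CPM for 5 µM and 251 ± 64.2 CPM for 10 µM. At 5 µM, the log2 fold change was −0.24 ± 0.15 (SE), with a 95% interval of −0.57 to 0.10 and an adjusted p of 0.393 in edgeR's quasi-likelihood test. At 10 µM it was 0.18 ± 0.15, with an interval of −0.16 to 0.51 and an adjusted p of 0.398 in the same test. Neither passed the test, whose estimate of the spread takes in the wide 10 µM group. With only the DMSO and 5 µM libraries fitted, where the groups do not overlap, the 5 µM value was −0.23 with an adjusted p of 0.000678. Without 10 µM replicate 1, the 10 µM value turned to −0.05 (adjusted p 0.518), and the 5 µM value stayed at −0.24 with an SE of 0.05 and an adjusted p of 0.00265. In both of these fits the 5 µM value met the adjusted p limit of 0.05 and was short of the 1.5-fold limit (log2 0.58) that a call also requires here. Between the doses, the MT2A log2 difference was 0.41 ± 0.15 (adjusted p 0.123 in edgeR) with all libraries. Without 10 µM replicate 1 it was 0.19 (adjusted p 0.0315), also short of the 1.5-fold limit.

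MT1X, the other metallothionein gene with a measurable level, read 7.39, 8.66 and 6.66 CPM under DMSO, 5.7, 4.96 and 5.03 CPM at 5 µM and 7.87, 4.69 and 5.16 CPM at 10 µM. Every 5 µM library was below every DMSO library, and 10 µM replicates 2 and 3 were below them too, with replicate 1 inside the DMSO range. The means were 7.57 ± 1.01 CPM (SD, n = 3), 5.23 ± 0.409 CPM and 5.91 ± 1.72 CPM. The log2 fold change was −0.53 ± 0.20 at 5 µM (1.45-fold lower, 95% interval −0.99 to −0.08), with an unadjusted p of 0.0254 and an adjusted p of 0.135 in edgeR. At 10 µM it was −0.36 ± 0.20 (interval −0.81 to 0.09, adjusted p 0.203). MT1X was thus not called at either dose when all 9 libraries were used. Leaving out 10 µM replicate 1 moved the 10 µM value to −0.62 (1.54-fold lower, adjusted p 0.00422), which is a call. With the length and GC trend of each library removed, MT1X was called lower at both doses, at −0.66 (adjusted p 0.0203) for 5 µM and −0.63 (adjusted p 0.0116) for 10 µM.

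None of the 3 tested genes was called at 5 µM, where 4.87% of all tested genes were called, or at 10 µM, where 19.1% were called. Between the doses, 0 of 3 were called against 4.01% of all tested genes. At an unadjusted p under 0.05 in edgeR, 2 of the 3 differed at 5 µM (MT1X lower, MTF1 higher). By this rule 1 differed at 10 µM (MTF1 higher) and 1 between the doses (MT2A higher at 10 µM). The share of all tested genes under this limit was not taken. By adjusted p alone, a stricter rule, 1676 of the 16417 tested genes passed at 5 µM, 5634 at 10 µM and 1379 between the doses. The share under the unadjusted limit is at least as large, which at 10 µM means at least 34.3%. DESeq2 and limma-voom called none of the 3 in any comparison. All 3 had groups that did not overlap at 5 µM, as did 48.8% of all tested genes. For 10 µM against DMSO, only MTF1 had groups that did not overlap, against 49.4% of all tested genes, and between the doses none of the 3 had, against 28.3%. The median log2 fold change over all tested genes was 0.01 at both doses.

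**Figure D2:**
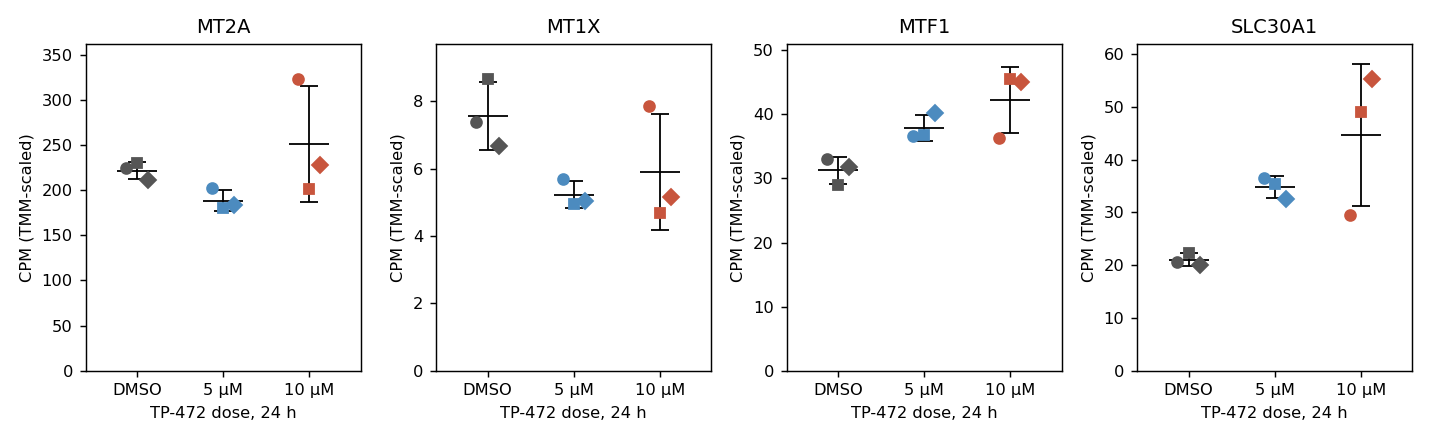
Levels of MT2A, MT1X, MTF1 and the zinc exporter gene SLC30A1 in the 9 libraries; the vertical axes are TMM-scaled CPM from 0, points are libraries (circle, square and diamond for replicates 1, 2 and 3), and bars are the group mean ± SD. The circle at 10 µM is the highest MT2A value (323 CPM) and, at 10 µM, the lowest SLC30A1 value (29.5 CPM).

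**Figure D3:**
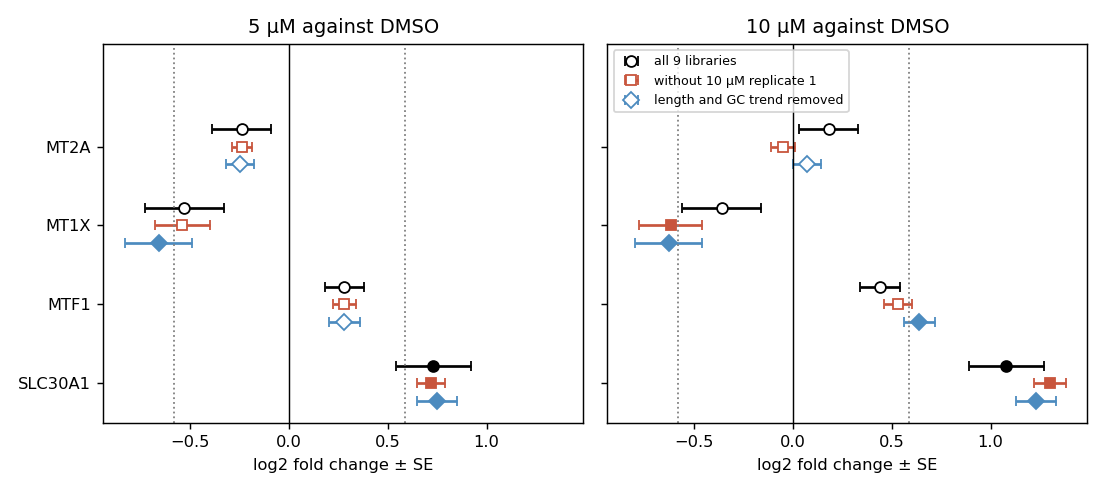
Log2 fold changes ± SE of 4 genes at 5 µM (left) and 10 µM (right) against DMSO with all 9 libraries, without 10 µM replicate 1 and with the length and GC trend removed; filled symbols are called and dotted lines mark a 1.5-fold change. MT1X at 10 µM moves from −0.36 to −0.62 and −0.63, and MTF1 from 0.44 to 0.53 and 0.64.

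The other 4 metallothionein genes gave almost no reads. MT1E, a gene expressed in some melanoma lines and silent in others, was at 0 in all 9 libraries, and the 3 counts that a count of 0 allows correspond to 0.0577 to 0.0709 CPM per library (counting error only). MT1F had 2, 3 and 7 counts in the DMSO libraries and 0 in all 6 TP-472 libraries. From a pooled 0.0854 CPM under DMSO, it was at least 4.15-fold lower at 5 µM and at least 4.25-fold lower at 10 µM, taking the limit of 3 counts over the 3 summed libraries of each dose and the 12 DMSO counts as exact. DMSO replicate 3 gave 7 of the 12 counts, and without it, an omission added after the values were seen, these limits were 2.48-fold and 2.53-fold. In an edgeR fit without the low-count filter, MT1F had an adjusted p of 0.263 at 5 µM and 0.139 at 10 µM, so the difference did not pass. MT1G had 0, 2.28 and 0.35 expected counts under DMSO, 1.2 in replicate 2 of the 5 µM group and 0 in the other 5 TP-472 libraries. MT1M had 2 counts in DMSO replicate 1 and 0 in the other 8 libraries. At these depths no difference in MT1E, MT1G or MT1M was detectable. The table held 10 further metallothionein symbols, none of which could be tested. Of these, MT1A, MT1B, MT1H, MT1HL1, MT1IP, MT1JP, MT1L and MT4 were at 0 in all 9 libraries, MT1DP had 2 counts in 1 library, and MT3, the brain form, had at most 5 counts in a library.

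The sum over the 6 genes does not depend on how reads were divided among them. It was 232, 239 and 217 CPM under DMSO, 207, 185 and 188 CPM at 5 µM and 331, 205 and 233 CPM at 10 µM. The 5 µM libraries lay below the DMSO libraries, and the 10 µM libraries did not separate from them. The means were 229 ± 10.7 CPM (SD, n = 3), 193 ± 12.3 CPM and 256 ± 66 CPM, and the 10 µM mean was 219 CPM without replicate 1.

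The ratio of MT2A to MT1X, examined after the values had been seen, is taken within a library and is free of library scaling. It is not free of the length and GC trends or of how reads were divided between the 2 genes. The transcripts used are 786 nt (63.0% GC) for MT2A and 450 nt (50.9% GC) for MT1X, and the part of these in the ratio was not tested. The ratio was 30.3, 26.5 and 31.6 under DMSO, 35.4, 36.3 and 36.3 at 5 µM and 41.0, 42.8 and 44.2 at 10 µM. The 3 groups did not overlap, and replicate 1 at 10 µM lay with the other libraries of its dose. The means were 29.5 ± 2.64 (SD, n = 3), 36 ± 0.523 and 42.7 ± 1.59. On the log2 scale the ratio was higher by 0.29 at 5 µM, by 0.54 at 10 µM and by 0.24 at 10 µM against 5 µM. The exact two-sided permutation p was 0.1 for each of the 3 comparisons (adjusted p 0.1), the smallest that 3 against 3 libraries can give. The ratio is a description, and it does not say which of the genes differed.

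**Figure D4:**
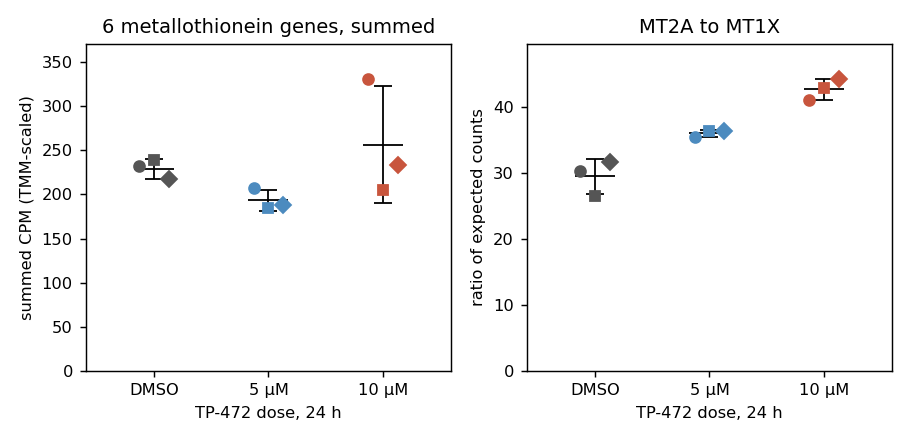
Left, the summed CPM of MT1E, MT1F, MT1G, MT1M, MT1X and MT2A in each library; right, the ratio of MT2A to MT1X expected counts; both axes start at 0, points are libraries and bars are the group mean ± SD. The summed level overlaps between DMSO and 10 µM (331 CPM in the highest 10 µM library), while the ratios fall in 3 separate ranges up to 44.2.

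MTF1, the zinc-sensing activator of the family, read 33, 29 and 31.7 CPM under DMSO, 36.6, 36.7 and 40.2 CPM at 5 µM and 36.3, 45.5 and 45 CPM at 10 µM. Every TP-472 library was above every DMSO library, and replicate 1 was the lowest at 10 µM. The means were 31.2 ± 2.04 CPM (SD, n = 3), 37.8 ± 2.02 CPM and 42.3 ± 5.16 CPM. At 5 µM the log2 fold change was 0.28 ± 0.10 with an adjusted p of 0.128 in edgeR. At 10 µM it was 0.44 ± 0.10 (1.35-fold, 95% interval 0.21 to 0.67) with an adjusted p of 0.0091, a difference that met the adjusted p limit and not the 1.5-fold limit. By adjusted p alone, 34.3% of all tested genes passed at 10 µM, and 16.4% passed as higher. Without 10 µM replicate 1, the 10 µM value was 0.53 (1.45-fold, adjusted p 1.28e-05), and with the length and GC trend removed it was 0.64 (1.56-fold, adjusted p 0.000154), which is a call. Without DMSO replicate 2 the adjusted p was 0.0532, which failed the limit. From 5 to 10 µM the log2 difference was 0.16 ± 0.10 (adjusted p 0.372) with all libraries. It was 0.26 (adjusted p 0.0146) without 10 µM replicate 1 and 0.36 (adjusted p 0.0171) with the length and GC trend removed. Both met the adjusted p limit and not the 1.5-fold limit.

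SLC30A1, which encodes the zinc exporter of the plasma membrane and is itself an MTF1 target, rose at both doses. It read 20.7, 22.4 and 20 CPM under DMSO, 36.5, 35.4 and 32.6 CPM at 5 µM and 29.5, 49 and 55.3 CPM at 10 µM. No TP-472 library overlapped the DMSO range, and replicate 1 was again apart from the other 10 µM libraries. The log2 fold change was 0.73 ± 0.19 at 5 µM (1.65-fold, adjusted p 0.0394 in edgeR) and 1.08 ± 0.19 at 10 µM (2.12-fold, adjusted p 0.00193). Without 10 µM replicate 1 these were 0.72 (adjusted p 1.39e-06) and 1.30 (adjusted p 1.49e-09). The 10 µM call was kept under all 21 alternative settings (0.90 to 1.30), and the 5 µM call was lost under 8 of 21, including each setting that left out 1 DMSO or 1 5 µM library (adjusted p up to 0.152). SLC39A10, a zinc importer that MTF1 is known to repress, had group means of 37 ± 2.35, 33.2 ± 4.82 and 31 ± 4.22 CPM (SD, n = 3) at 0, 5 and 10 µM. Its log2 fold changes of −0.16 and −0.26 had adjusted p of 0.536 and 0.155 in edgeR, and without 10 µM replicate 1 the latter was −0.16 (adjusted p 0.212). Of these 4 known MTF1 targets, SLC30A1 was called, while MT2A, MT1X and SLC39A10 were not, and the difference between the genes was not tested.

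Of the 10 zinc exporter genes (SLC30 family), 8 were tested. At 5 µM 1 was called higher, where 4.87% of all tested genes were called. At 10 µM 1 was called higher and 1 lower, where 19.1% of all tested genes were called, with a median log2 fold change of −0.06. The gene that fell at 10 µM was SLC30A2, a vesicular exporter at 0.4 ± 0.0982 CPM under DMSO and 0.066 ± 0.0572 CPM at 10 µM (SD, n = 3; log2 fold change −2.55, adjusted p 0.0471), a call lost under 13 of the 20 alternatives that tested it, each single-library omission among them (adjusted p over the 20 from 0.00695 to 0.164). It stood at −1.99 (adjusted p 0.0637) without 10 µM replicate 1, and SLC30A1 was the exporter gene still called. Of the 14 zinc importer genes (SLC39 family), 11 were tested. None was called at either dose by edgeR, against 4.87% and 19.1% of all tested genes. At an unadjusted p under 0.05 in edgeR, 3 importers were higher and 1 lower at 10 µM, and DESeq2 called 1. The share of all tested genes under that unadjusted limit was not taken. By adjusted p alone, SLC39A7 and SLC39A11 were higher and SLC39A14, an importer of zinc and iron, was lower at 10 µM (log2 −0.48, adjusted p 0.0224), where 34.3% of all tested genes passed by this rule. These 3 were picked out after their values were seen, and without 10 µM replicate 1 they stood at 0.31, 0.34 and −0.31.

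The 9 copper-handling genes were all tested, and 0 were called at 5 µM in edgeR, DESeq2 or limma-voom. EdgeR called 4.87% of all tested genes at that dose. There 3 of the 9 had an unadjusted p under 0.05 in edgeR, and the share of all tested genes under that limit was not taken. By adjusted p alone, a stricter rule, 1 of the 9 passed at 5 µM, against 1676 of the 16417 tested genes. At 10 µM, 3 were called higher and none lower, where 19.1% of all tested genes were called. By adjusted p alone, 7 of the 9 were higher and none lower at 10 µM, where 16.4% of all tested genes passed as higher. Without 10 µM replicate 1 the edgeR adjusted p of these 7 ran from 0.000129 to 0.0157, and the share of all tested genes in that fit was not taken. With all libraries the median log2 fold change was 0.50 against 0.01 over all genes. CCS, the gene at that median, stood at 0.34 without 10 µM replicate 1, and SLC31A1, the middle gene of the 9 in that fit, at 0.29. SLC31A2, a copper transporter of endosomes, rose from 5.11 ± 0.567 CPM under DMSO to 9.13 ± 0.727 CPM at 10 µM (log2 0.84 ± 0.14, adjusted p 0.00145). COX17, a copper chaperone for cytochrome c oxidase, had a log2 fold change of 0.77 ± 0.18 (adjusted p 0.00952), with 60 CPM in 10 µM replicate 1 against 32.3 and 43.6 CPM in replicates 2 and 3. COMMD1, a regulator of copper export, had 0.64 (adjusted p 0.0204), likewise with its highest value, 17.2 CPM, in replicate 1. Without that replicate COX17 and COMMD1 stood at 0.51 and 0.42, below the fold limit, and SLC31A2 was the copper gene that was still called (0.88, adjusted p 0.000129). With the length and GC trend removed, 1 of the 9 was called, and neither COX17 nor COMMD1. COMMD1 was also not called without DMSO replicate 2 or replicate 3.

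Among 11 metal and oxidant stress genes outside the family, HMOX1 rose most. HMOX1, the heme oxygenase that cadmium, heme and oxidants induce, read 7.95, 7.82 and 7.59 CPM under DMSO, 19.9, 25 and 21.6 CPM at 5 µM and 96.7, 76.5 and 65.9 CPM at 10 µM. The 3 groups did not overlap. The log2 fold change was 1.51 ± 0.15 at 5 µM (2.85-fold, adjusted p 0.000245 in edgeR) and 3.36 ± 0.15 at 10 µM (10.23-fold, adjusted p 4.84e-07), and both calls were kept under all 21 alternatives. GCLM, a subunit of the enzyme that limits glutathione synthesis, rose by 0.88 ± 0.08 at 10 µM (adjusted p 2.68e-05), and SRXN1, which repairs oxidised peroxiredoxins, rose by 0.69 ± 0.08 (adjusted p 0.000122). HMOX1, GCLM and SRXN1 stood at 3.19, 0.93 and 0.64 when 10 µM replicate 1 was left out, all still called. In all, 3 of the 11 were called higher and none lower at 10 µM, where 19.1% of all tested genes were called. The other 8 were not called and ran from −0.34 (SLC7A11, adjusted p 0.12) to 0.29 (GCLC, adjusted p 0.0354), ends named after their values were seen. Without 10 µM replicate 1, SLC7A11 stood at −0.16 and GCLC at 0.36. HMOX1 and metallothionein mRNA are often induced by the same metals; here HMOX1 rose at both doses, MT2A and MT1X were not called higher at either, and the difference between the genes was not tested.

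**Figure D5:**
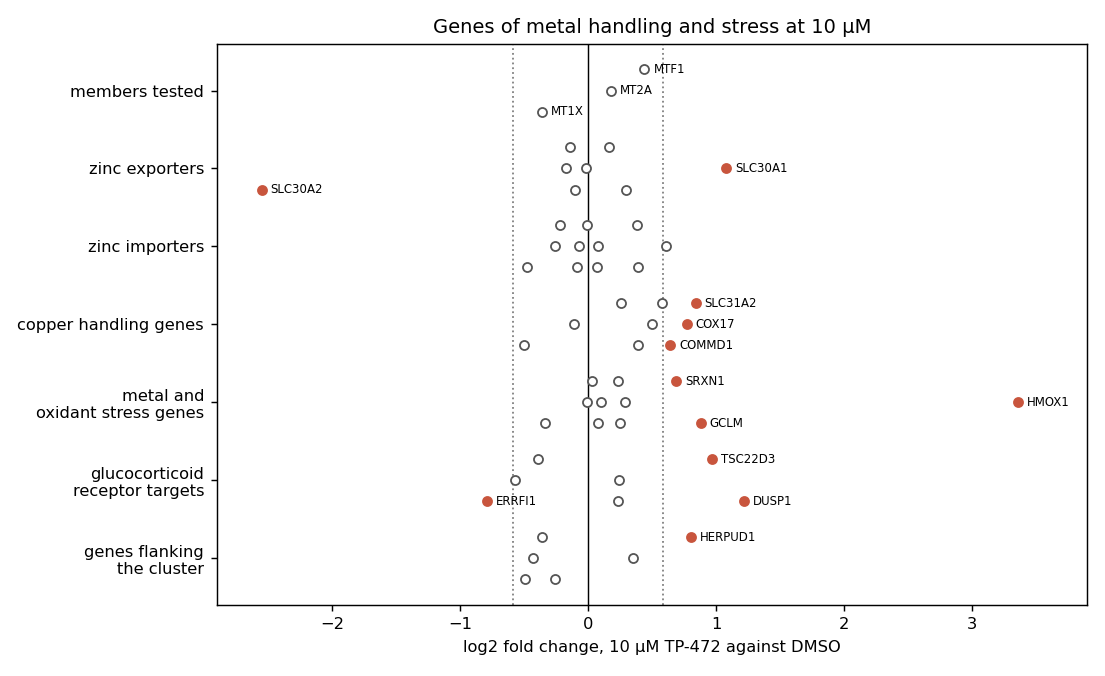
Log2 fold changes of 10 µM TP-472 against DMSO for the 3 tested members and 6 gene lists; each point is a gene, filled points are called, dotted lines mark a 1.5-fold change, and the vertical offset within a list only separates points. HMOX1 lies farthest to the right (3.36) and SLC30A2 farthest to the left (−2.55), while MT2A, MT1X and MTF1 lie inside the 1.5-fold lines.

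The genes outside the family whose levels most resembled the summed metallothionein CPM, by Pearson's r of log2(CPM + 1) over the 9 libraries among 13679 genes, were EBP (0.959), PSAP (0.958), TBCA (0.957), PCMT1 (0.955) and CSAD (0.954). Without 10 µM replicate 1, r was 0.82 to 0.85 for these 5. All share the 9 libraries and their scaling, so the values are a description with no test.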

How the data were processed

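RNA of A375 cells (DMSO, 5 µM or 10 µM TP-472, 24 h; 3 libraries each) had been made into strand-specific libraries. The authors' deposited file holds RSEM expected counts by gene symbol, with no scaling to library size. The submitters' processing notes name Bowtie2 2.1.0, RSEM 1.2.15 and hg38. Annotation, filters and strand setting: not given in the sources used here. Per the labels, the protocol describes oligo-dT selection and the design text ribosomal RNA depletion, which could alter the ribosomal share. All 9 columns were used.

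Expected counts were rounded and tested in edgeR 4.0.16 (R 4.3.3) with TMM factors, filterByExpr (16417 genes) and 1 quasi-likelihood fit of the 3 groups. A call required a Benjamini-Hochberg adjusted p under 0.05 over all genes and a 1.5-fold change. The SE is the log2 fold change over the square root of F, and 95% intervals use the test's degrees of freedom. The scripts were tested on simulated data. DESeq2 1.42.0, limma 3.58.1, other scaling, filters, a replicate block, removal of a length and GC trend (natural splines with 4 degrees of freedom; 93.3% of tested genes had both values) and omission of each library were alternatives. Tables were made in Python 3.11.15.

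Depths of 42483091 to 51298130 counts put 3 counts, the limit a count of 0 allows, at 0.0577 to 0.0709 CPM. The main edgeR p-values rest on the spread between libraries within groups, 3 a group, estimated from all 9 libraries together. The spread of the 10 µM group thus enters the test of 5 µM against DMSO. The members and lists were chosen with earlier results of these data known. Named genes were the members, SLC30A1 and SLC39A10, up to 4 further genes of each list by smallest p at 10 µM among those called at either dose, and the 5 genes most like the summed metallothionein CPM with a mean of at least 1 CPM.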

Additional observations from a re-analysis of the deposited data

How the results depend on the processing

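Of 1005 gene-level fold changes under the alternatives, 936 kept their direction and side of the threshold, 48 lost a call, 15 gained one and 6 changed sign; except where a cause is named, the cause was not tested. The sign changes were MT2A at 10 µM (−0.05; −0.05 to 0.31 over the omissions of 1 library), MT1X between doses (−0.09; −0.09 to 0.31), ERRFI1 between doses (0.04; −0.12 to 0.04) and SLC39A10 between doses (0.00; −0.21 to 0.00), each without 10 µM replicate 1, and SLC39A10 between doses with the length and GC trend removed (0.05) and with that and the replicate block (0.05). Of the 7 members, calls rose from 0 to 1 at 5 µM with the trend removed, with or without the replicate block (1 each), and at 10 µM to 2 with the trend removed, 2 with the trend removed and the block, and 1 with no fold limit; leaving out each library gave 0 to 1 at 10 µM. With no limit on the fold, 1676, 5634 and 1379 genes were called at 5 µM, at 10 µM and between doses against 799, 3137 and 658. With only the 2 groups compared, 1320 were called at 5 µM and 266 between doses. Leaving out each library gave 480 to 1241 at 5 µM and 379 to 871 between doses. Without 10 µM replicate 1, MT2A, MT1X and MTF1 kept their values at 5 µM with smaller adjusted p. Summed metallothionein CPM rose to 262 for DMSO, 220 at 5 µM and 293 at 10 µM with ribosomal RNA genes left out, by construction of the smaller library size. Same-numbered libraries of different groups had deviations from their group means that correlated at −0.049 to 0.032 over 9 pairs. The 18 pairs with different numbers gave −0.033 to 0.045. No effect shared by a number was seen, which does not tell whether such libraries were prepared together. The replicate block gave 687, 3005 and 556 calls and none of the members. DESeq2 called 1062, 3406 and 957 genes. Depth limits MT1E, MT1F, MT1G and MT1M, with at most 7 counts in a library.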

Other observations

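Glucocorticoids also induce metallothionein genes, and 7 of 8 glucocorticoid receptor targets were tested, with ZBTB16 at 0 in all 9 libraries. At 10 µM, 2 were called higher and 1 lower, against 19.1% of all tested genes. DUSP1, a phosphatase of MAP kinases, rose from 12.3 ± 0.908 CPM under DMSO to 28.6 ± 5.47 CPM at 10 µM (SD, n = 3; log2 1.22 ± 0.13, edgeR adjusted p 0.000111). TSC22D3 rose from 4.08 ± 0.492 to 8 ± 1.96 CPM (log2 0.97 ± 0.30, adjusted p 0.032), a call lost under 6 of 21 alternatives, among them each of the 3 that left out a DMSO library. ERRFI1, a feedback inhibitor of EGFR, fell from 395 ± 5.68 CPM under DMSO to 237 ± 5.96 CPM at 5 µM (log2 −0.74, adjusted p 0.00065) and to 229 ± 25.9 CPM at 10 µM (log2 −0.79, adjusted p 9.61e-05). The 10 µM values of DUSP1, TSC22D3 and ERRFI1 were 1.07, 0.76 and −0.70 without replicate 1 of that dose, all still called.

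Of the 7 genes on either side of the metallothionein cluster, 6 were tested. At 5 µM edgeR, DESeq2 and limma-voom called none, where edgeR called 4.87% of all tested genes. At an unadjusted p under 0.05 in edgeR, 1 was higher and 4 lower, and the share of all tested genes under that limit was not taken. By adjusted p alone, a stricter rule, 2 of the 6 were lower at 5 µM and none higher, against 1676 of the 16417 tested genes. At 10 µM 1 was called higher and none lower, where 19.1% of all tested genes were called. HERPUD1, an endoplasmic reticulum stress gene, rose from 44.3 ± 0.36 CPM under DMSO to 76.9 ± 11.6 CPM (SD, n = 3; log2 0.80 ± 0.10, edgeR adjusted p 0.000311), and stood at 0.66 without 10 µM replicate 1. By adjusted p alone, 2 of the 6 were higher and 4 lower at 10 µM, against 34.3% of all tested genes in either direction, with a median log2 fold change of −0.31.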
